A study of Mus musculus with 8 samples.

Results

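Fatty acid binding proteins are small cytosolic proteins that carry long-chain fatty acids and other lipids between membranes, enzymes and the nucleus. Of the 4 family members considered here, Fabp1, Fabp3, Fabp4 and Fabp5, chosen by gene name, 3 were analysed among the 12367 genes of the expression table. Fabp3, the form of heart and skeletal muscle, was not analysed here. The study sequenced polyadenylated RNA of alveolar macrophages, the resident macrophages of the air spaces, sorted as CD45+ F4/80+ CD11c+ cells from lungs of untreated mice at 3 weeks of age. The experimental group, KO, was CD11c-Cre Tfam-fl/fl, in which the CD11c promoter drives the Cre recombinase that deletes Tfam, and the control group, WT, was Tfam-fl/fl without the Cre. Both groups therefore carry floxed Tfam. No Cre-bearing control without floxed Tfam was used here, so what the Cre alone does and what the deletion does cannot be told apart. Each group had 4 libraries, and each library pooled cells of 3 to 5 male and/or female mice.

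Fabp1 is best known from liver and intestine, where it is abundant and responds to the fatty acid receptor PPARα. Fabp4, the adipocyte form also called aP2, is found in fat cells, macrophages and capillary endothelium, and is a classic target of PPARγ, the receptor on which alveolar macrophage development depends. Fabp5, the epidermal form, is expressed in skin, endothelium and macrophages, and has been linked to delivery of ligands to PPARδ. Alveolar macrophages handle the lipids of surfactant, and transcripts of this family are among the genes by which they are recognised.

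The members shared a gene layout of 4 exons in their coding transcript (GENCODE M21, build GRCm38). Fabp1 (ENSMUSG00000054422) lies on chromosome 6 at 71199827 to 71205023 on the plus strand. Fabp5 (ENSMUSG00000027533) and Fabp4 (ENSMUSG00000062515) lie in 1 cluster on chromosome 3, at 10012548 to 10016607 on the plus strand and at 10204088 to 10208576 on the minus strand, 187 kb apart. The promoter of Fabp1 is shown because Fabp1 had the largest change of the family and because a PPAR response element has been described in the proximal promoter of the rodent gene. Promoter entries existed for Fabp1 and Fabp3 in the RefSeq table (GRCm38.p6). The 198 bases from chr6:71199629-71199826, plus strand, end where the GENCODE gene begins, and capitals mark a pair of half-sites spaced by 1 base.
Fabp1: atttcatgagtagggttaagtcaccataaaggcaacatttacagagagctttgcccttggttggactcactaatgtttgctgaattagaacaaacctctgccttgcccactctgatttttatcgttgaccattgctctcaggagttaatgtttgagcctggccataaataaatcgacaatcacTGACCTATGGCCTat

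The capitals match AGGNCANAGGTCA on the minus strand, 67 to 55 bases before the RefSeq start. Searched on both strands in the 250 bases before the start of 32851 RefSeq promoters, this motif was held by 27 of them, or 0.0822%. The strict repeat AGGTCANAGGTCA had no match in the Fabp1 window and occurred in 0.0335% of promoters. The single half-site AGGTCA, which the longer motifs contain, occurred in 14.0% of promoters and matched at 2 places in the Fabp1 window. The form with a free base was chosen after the sequence had been read, and a match describes letters only.

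Libraries held between 20243772 and 30263201 reads in the listed genes in KO and between 24776683 and 29161957 in WT. Values are on the authors' normalised scale, in which reads are divided by a library factor, and errors are the SD of 4 pools per genotype. Read back as a library size, this factor was below the reads in listed genes in every KO library. It was above them in every WT library. A log2 fold change is the difference in log2(value + 1), KO minus WT, which understates the change of low genes. Tests come from limma fitted to all 12163 genes that reached a value of 1 in at least 4 libraries, with Benjamini-Hochberg adjustment, and a gene is called when its adjusted p is under 0.05. Tfam, the deleted gene, lay between 3.52 and 5.08 in the KO pools and between 26.1 and 35.2 in the WT pools (log2 fold change -2.55, SE 0.117, limma adjusted p = 1.02e-06). Calls were made for 38.7% of the tested genes, 18.7% being higher in KO and 20.0% lower. The second principal component, with 12.8% of the variance, set the replicate 4 libraries of both genotypes apart (14.1 in KO and 25.6 in WT, against -15.4 to 4.90 in the others), so results are also given without them where this matters.

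All 15 markers chosen for alveolar macrophages were measured, with a summed value of 40497 to 46048 in KO and 39178 to 40109 in WT, most of it from Chil3. Of these markers 4 were called higher in KO, namely Car4, Plet1, Ctsk and Itgax, which encodes the sorting marker CD11c. The 6 called lower were Siglecf, Ear1, Ear2, Krt79, Cidec and Fabp1. That is 66.7% called, against 38.7% of all tested genes, and the sum, led by Chil3, does not show these changes. Of 10 interstitial macrophage markers 9 were measured, none at 0 reads in any library. Their summed value was 152 to 335 in KO and 77.1 to 122 in WT, on average most of it from Apoe. Of these markers 7 were called higher in KO, 0 lower and 2 were not called. That is 77.8% called, against 38.7% of all tested genes. The part of interstitial macrophages in the changes of Fabp1 and Fabp5 was not tested. The summed monocyte markers (5 of 7 measured) were 40.1 to 101 in KO and 27.6 to 46.7 in WT, the dendritic cell markers (8 of 8) 23.7 to 35.5 in KO and 22.9 to 28.7 in WT, and the neutrophil markers (5 of 7) 46.1 to 57.4 in KO and 84.0 to 121 in WT. Of 10 capillary endothelial markers all were measured, none at 0 reads, with a summed value of 46.3 to 74.4 in KO and 32.6 to 124 in WT. All 9 markers of type 2 epithelium were measured too, at 189 to 259 in KO and 183 to 294 in WT. On average most of this sum came from Abca3 (85.1 ± 3.56 in KO, 101 ± 3.64 in WT) and Napsa (61.1 ± 7.17 in KO, 52.3 ± 4.10 in WT). Sftpc was 41.7 ± 15.0 in KO and 33.4 ± 28.4 in WT. Markers of liver and intestinal epithelium and of muscle were not analysed here, and the adipocyte list was represented by Plin1, a lipid droplet coat protein, at 2.04 to 4.93 in KO and 3.51 to 11.4 in WT. In these bulk samples, fewer cells of a type and less RNA per cell cannot be told apart.

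Fabp1 fell in every KO pool, Fabp5 rose in every KO pool, and Fabp4 moved less than either. With the 3 measured members, 1 was called lower, 1 higher and 1 was not called, against 38.7% of all genes called.

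Fabp1 mRNA had values of 10.1, 9.23, 10.8 and 14.9 in KO replicates 1 to 4, against 187, 177, 196 and 158 in WT replicates 1 to 4. The groups did not overlap, as was true of 37.7% of all tested genes, and the highest KO pool lay far below the lowest WT pool. The means were 11.2 ± 2.50 in KO and 179.6 ± 16.1 in WT (SD, n = 4), which is 16.0-fold lower in KO. The log2 fold change was -3.90 (SE 0.129, 95% interval -4.19 to -3.61, limma adjusted p = 1.55e-07), and a two-sided exact permutation test reached its lower limit for this design, p = 0.0286. Transcript was still counted in KO, by 212 to 323 reads per library, against 4743 to 5145 reads in WT. KO replicate 4 kept the most Fabp1 mRNA of the KO libraries, and WT replicate 4 had the least of the WT libraries.

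Among the 12163 tested genes, 3 had a lower log2 fold change than Fabp1, and each is encoded on the mitochondrial chromosome. These were mt-Co3 of complex IV (log2 fold change -5.96), mt-Nd5 of complex I (-4.04) and mt-Atp6 of the ATP synthase (-3.98). In this fit no tested gene outside the mitochondrial genome had a lower log2 fold change than Fabp1. The place of Fabp1 among the mitochondrial genes moved with the setting. Of mt-Co1, mt-Co2 and mt-Cytb, all above Fabp1 in this fit, all 3 lay below it at a pseudocount of 5 and under quantile normalisation. Mt-Co2 and mt-Cytb lay below it without WT replicate 2 or KO replicate 3, and mt-Cytb without KO replicate 1. The mt-Co3 value varied widely within KO (4.71 ± 9.38, against 137 ± 35.5 in WT), and mitochondrial genes have nuclear copies with which reads could be shared.

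Fabp5 mRNA had values of 751, 787, 754 and 702 in KO replicates 1 to 4, against 288, 300.0, 351 and 222 in WT replicates 1 to 4. The groups did not overlap, which held for 37.7% of all tested genes. The KO pools lay close together while the WT pools spread more widely. The means were 748 ± 34.8 in KO and 290.3 ± 53.0 in WT (SD, n = 4), a 2.58-fold higher mean in KO. The log2 fold change was 1.38 (SE 0.118, 95% interval 1.12 to 1.64, limma adjusted p = 2.42e-05; two-sided exact permutation p = 0.0286). Among tested genes, 179 had a higher log2 fold change than Fabp5. The lowest Fabp5 value of each genotype was that of replicate 4. WT replicate 3, which had the highest WT value of Fabp5, also had the highest WT marker sums of several other cell types. These were endothelium (124), type 2 epithelium (294), neutrophils (121) and monocytes (46.7). The interstitial macrophage and dendritic cell sums were highest among WT libraries in WT replicate 1 (122 and 28.7). The part of RNA from such cells in Fabp5 was not tested.

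Fabp4 mRNA had values of 182, 142, 157 and 116 in KO replicates 1 to 4, against 143, 114, 121 and 57.7 in WT replicates 1 to 4. The groups overlapped, since WT replicate 1 exceeded KO replicates 2 and 4, and WT replicate 3 exceeded KO replicate 4. The means were 149 ± 27.4 in KO and 109 ± 36.4 in WT (SD, n = 4). The log2 fold change was 0.51 (SE 0.253, 95% interval -0.06 to 1.07) and did not pass the test (limma adjusted p = 0.143; two-sided exact permutation p = 0.143). The interval spans values from near 0 to above 1, so a change of the size seen in Fabp4 could not be told from the spread between pools in this fit.

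Within same-numbered libraries, Fabp4 was higher in the KO pool in 4 of 4 cases. The ratio of KO to WT was 1.27, 1.25, 1.29 and 2.02 in replicates 1 to 4. Libraries of the same number deviated together across all genes, and with the replicate number as a block the same Fabp4 difference had an SE of 0.108 and passed the test (limma adjusted p = 0.00497). Without both replicate 4 libraries the log2 fold change of Fabp4 was 0.34 (adjusted p = 0.0347), and without WT replicate 4 alone it was 0.23 (adjusted p = 0.233). Over all 21 alternative settings the adjusted p of Fabp4 ran from 0.00497 to 0.296. The size of the Fabp4 difference therefore depended on WT replicate 4, the library with the lowest Fabp4 value.

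**Figure D1:**
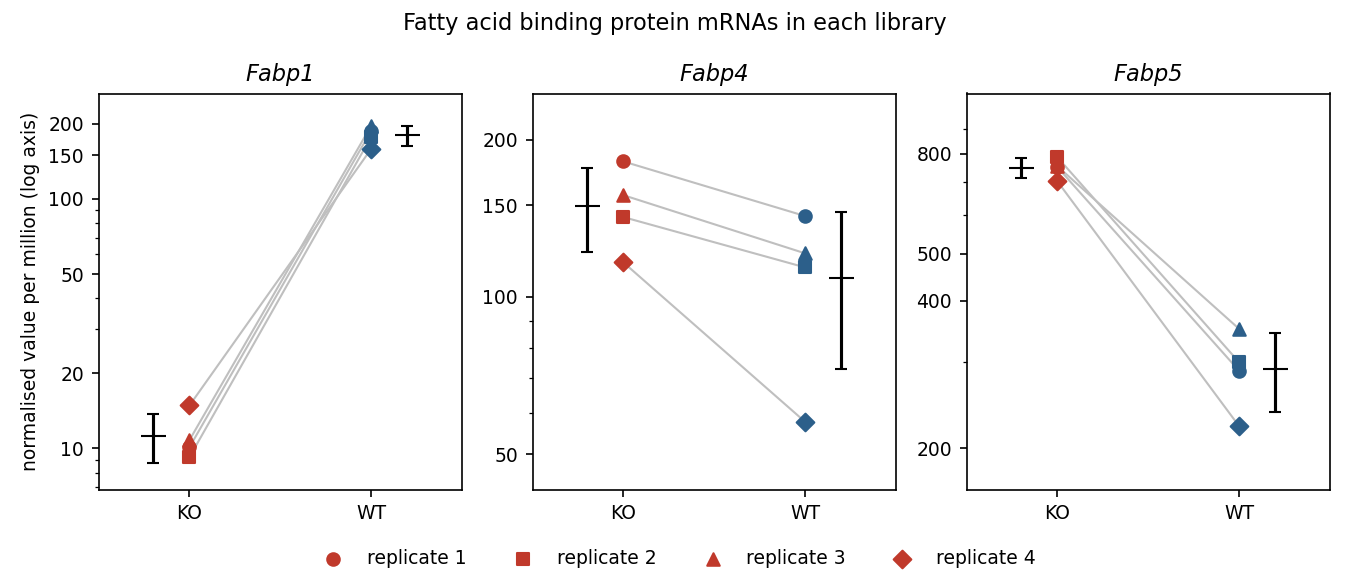
Normalised value (log axis) of Fabp1, Fabp4 and Fabp5 in each KO and WT library, with replicate numbers as symbols, grey lines joining same-numbered libraries and black bars giving mean ± SD (n = 4). KO values of Fabp1 (9.23 to 14.9) lie below WT (158 to 196), KO values of Fabp5 (702 to 787) lie above WT (222 to 351), and Fabp4 overlaps while each grey line is higher on the KO side.

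For each of the other members, too, every same-numbered comparison had the same direction. Fabp1 differed by -4.08, -4.12, -4.06 and -3.33 log2 units (KO minus WT) in replicates 1 to 4, so the smallest drop was in replicate 4. Fabp5 differed by 1.38, 1.39, 1.10 and 1.66 log2 units in replicates 1 to 4, and Fabp4 by 0.35, 0.32, 0.37 and 1.0. For Fabp4 and Fabp5 the largest rise was in replicate 4, whose WT library had the lowest value of both. Without both replicate 4 libraries Fabp1 stood at -4.09 and Fabp5 at 1.29, with adjusted p of 1.24e-07 and 1.04e-05 by limma.

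**Figure D2:**
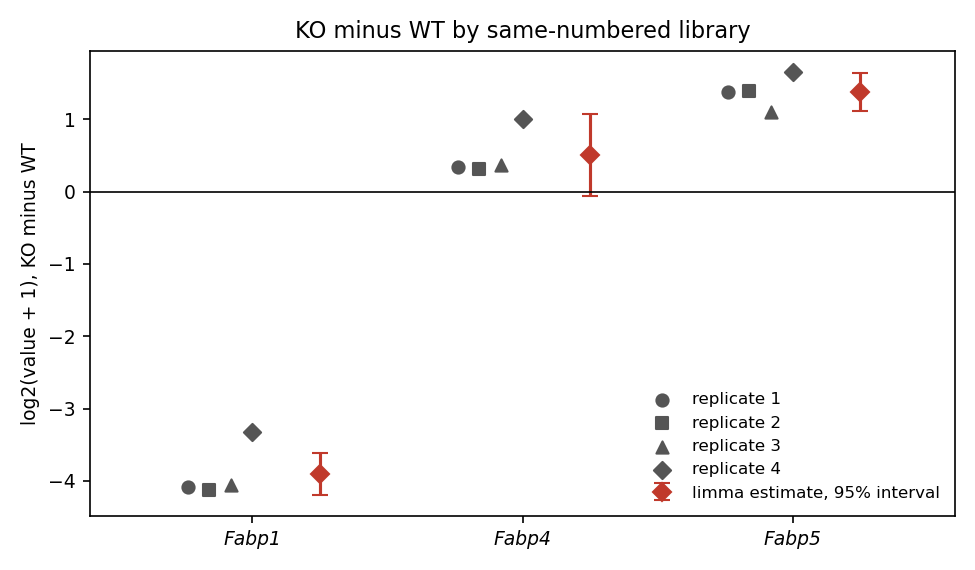
Difference in log2(value + 1), KO minus WT, for each pair of same-numbered libraries (grey symbols) and the limma estimate with its 95% interval (red) for Fabp1, Fabp4 and Fabp5. All 4 pairs lie below 0 for Fabp1 and above 0 for Fabp4 and Fabp5, and the interval of Fabp4 (-0.06 to 1.07) includes 0.

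To compare members with one another, values were divided by the length of the coding transcript, which is 553 bases for Fabp1, 896 for Fabp4 and 987 for Fabp5. In KO the order per kilobase was Fabp5 (758 ± 35.2), Fabp4 (167 ± 30.5) and Fabp1 (20.3 ± 4.51), and no ranges of neighbours in this order overlapped. In WT the order was Fabp1 (325 ± 29.2), Fabp5 (294 ± 53.7) and Fabp4 (122 ± 40.6). Fabp1 (287 to 354) and Fabp5 (225 to 355) overlapped in WT and were not separated beyond their spread, while Fabp4 (64.3 to 160) lay below both. Fabp1, the leading or joint leading member in WT, was the lowest of the measured members in KO. The short Fabp1 mRNA makes its level per kilobase depend on library fragment length, for which no value was at hand.

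The summed level per kilobase was 982, 972, 959 and 868 in KO replicates 1 to 4, against 790, 751, 845 and 576 in WT replicates 1 to 4. All 4 KO sums lay above all 4 WT sums, with means of 945 ± 52.2 in KO and 740.5 ± 116 in WT, a ratio of 1.28. Of single tested genes, 37.7% likewise showed no overlap between the groups. The gap was narrow, from 868 in KO replicate 4 to 845 in WT replicate 3. Values of all genes added up to 1.03e+06 to 1.04e+06 in KO libraries and 963386 to 977649 in WT libraries. The lack of overlap in the sums per kilobase therefore depends on how libraries were scaled. Before division by length, the summed value was 834 to 943 in KO and 438 to 668 in WT, a ratio of means of 1.57. Fabp1 made up 2.18% ± 0.626 of the sum per kilobase in KO and 44.3% ± 3.67 in WT. Fabp5 made up 80.3% ± 2.14 in KO and 39.6% ± 2.16 in WT. The share of Fabp4 was 17.6% ± 2.48 in KO and 16.1% ± 3.73 in WT, and the groups overlapped. These sums and shares describe members that were chosen with earlier results known, and no test was run on them.

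**Figure D3:**
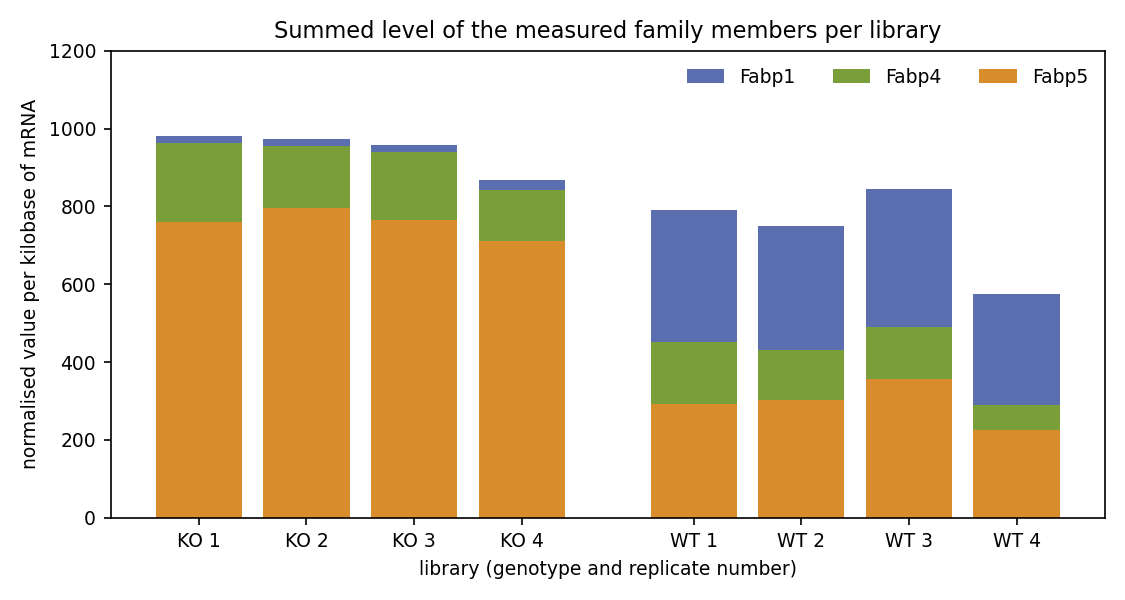
Stacked normalised value per kilobase of mRNA of Fabp5 (orange), Fabp4 (green) and Fabp1 (blue) in each KO and WT library. Fabp1 forms 1.72% to 3.10% of the bar in KO and 41.9% to 49.8% in WT, while the whole bar reaches 868 to 982 in KO and 576 to 845 in WT.

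Ratios within a library, taken after adding 1 to each value, depend on the scaling between libraries only through that added 1. It lowers the Fabp5 to Fabp1 ratio most in KO, where Fabp1 is low. The log2 ratio of Fabp5 to Fabp1 per kilobase was 5.24, 5.43, 5.16 and 4.63 in KO replicates 1 to 4, against -0.22, -0.08, 0.00 and -0.35 in WT replicates 1 to 4. Near equality in WT thus stood against a strong lead of Fabp5 in every KO library, a shift of 5.28 log2 units. The ratio of Fabp4 to Fabp1 averaged 2.92 ± 0.504 in KO and -1.48 ± 0.457 in WT. The ratio of Fabp5 to Fabp4 averaged 2.20 ± 0.238 in KO and 1.32 ± 0.380 in WT. Its ranges (1.90 to 2.44 in KO, 0.87 to 1.79 in WT) did not overlap, as was also true of 37.7% of single tested genes.

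The mRNAs of the members differ enough to be told apart by most reads. Coding bases of Fabp4 and Fabp5 were identical at 62.8% of aligned positions, those of Fabp1 and Fabp5 at 59.6% and those of Fabp1 and Fabp4 at 56.9%. The longest run of identical bases between any 2 of the measured mRNAs was 12, between Fabp4 and Fabp5. Fabp5 has 5 processed copies in the annotation that match its mRNA at 80% or more over at least 200 bases, and none of these was among the genes tested. Reads could be shared between Fabp5 and these copies, so its level is less certain than those of Fabp1 and Fabp4, for which no such copy was found.

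The genes nearest in pattern were taken as those with the smallest root mean square difference from a member, over 8 libraries, in log2 profiles centred on each gene's mean, among 8221 protein-coding genes with a mean value of at least 10. For Fabp1 the nearest were mt-Co1 and mt-Co2 of complex IV and mt-Cytb of complex III, at differences of 0.249, 0.250 and 0.273 log2 units. Mt-Co1 was 393 ± 91.0 in KO and 5262 ± 968 in WT, a log2 fold change of -3.76. For Fabp5 the nearest were Atp6v1c1, a subunit of the lysosomal proton pump, Oxct1, the enzyme that activates ketone bodies for oxidation, and Tbc1d16, a regulator of Rab GTPases, at 0.0838, 0.106 and 0.106. Oxct1 was 213 ± 7.6 in KO and 81.5 ± 8.59 in WT. For Fabp4 the nearest were Wdr6, Ciapin1, a factor in cytosolic iron-sulphur protein assembly, and Hpgds, the haematopoietic prostaglandin D synthase, at 0.143, 0.145 and 0.156. Of the genes near Fabp4, Hpgds was called (37.0 ± 5.81 in KO and 23.1 ± 6.71 in WT, limma adjusted p = 0.0245), and it missed the threshold without KO replicate 1, 2 or 3 (adjusted p of 0.0622, 0.0594 and 0.0671). Ciapin1 did not pass (55.7 ± 9.39 in KO and 38.9 ± 12.1 in WT, limma adjusted p = 0.0702), but passed with the replicate block (adjusted p = 0.00845), with library quality weights (0.0453) and without WT replicate 1 (0.0237). The likeness rests on 8 libraries that share the genotype difference.

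Neighbouring genes were looked up after the members' values had been seen. Within 500 kb of Fabp1, 4 of 10 tested neighbours were lower in KO and 0 higher. Of all tested genes, 20.0% were lower and 18.7% higher. The share called in either direction was near the 38.7% of all tested genes. The 4 lower neighbours include Smyd1, which passed the filter only through its WT values, so no result is read from the share lower. The closest was Smyd1, a muscle methyltransferase gene on the opposite strand 8.92 kb from Fabp1, which was lower at a very low level (0.194 ± 0.184 in KO and 1.59 ± 0.301 in WT, log2 fold change -1.12). Rpia, Eif2ak3 and Rnf103, the other lower neighbours, changed by -0.40 to -0.23 log2 units. Within 500 kb of Fabp5, 2 of 7 tested neighbours were higher and 1 lower, a share called again near the 38.7% of all tested genes. The higher ones were Zfp704 (40.9 ± 2.85 in KO and 14.9 ± 1.28 in WT) and Impa1, and the lower one was Pag1, which lies between Zfp704 and Fabp5.

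The receptors that fatty acid binding proteins serve did not pass the test. Pparg was 293 ± 61.6 in KO and 288 ± 50.2 in WT (log2 fold change 0.02, SE 0.151, limma adjusted p = 0.937). Ppard was 37.2 ± 2.28 in KO and 32.5 ± 2.67 in WT (log2 fold change 0.19, limma adjusted p = 0.0657), and passed with the replicate block (adjusted p = 0.0400), under quantile normalisation (0.0420), with library quality weights (0.0282), without WT replicate 4 (0.0257) and without both replicate 4 libraries (0.0340). Ppara was not analysed here. Among 16 measured nuclear receptors and cofactors, 1 rose, 4 fell and 11 did not pass, and their median log2 fold change was -0.09, against -0.01 over all tested genes. The share called, 31.2%, was below the 38.7% of all tested genes. The oxysterol receptor Nr1h3 (LXRα) rose to 84.8 ± 5.15 in KO, against 44.8 ± 4.09 in WT. The coactivator Ncoa2 fell to 49.7 ± 1.53 in KO, against 81.5 ± 5.06 in WT, and the retinoic acid receptor Rara to 74.1 ± 7.82 in KO, against 135 ± 17.0 in WT. Ncoa1, a related coactivator, and Ppargc1b, a coactivator of mitochondrial biogenesis, were the other genes that fell.

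Of 30 measured textbook targets of PPAR receptors, 6 rose, 16 fell and 8 did not pass, and the median of the list was -0.19 on the log2 scale. That is 73.3% called, against 38.7% of all tested genes. The lipase inhibitor Angptl4 fell to 41.7 ± 2.97 in KO, against 104 ± 5.55 in WT, and the lipid droplet protein Cidec to 199.7 ± 17.5 in KO, against 414 ± 42.9 in WT. Acaa1b, a peroxisomal thiolase, fell to 84.6 ± 10.7 in KO, against 316 ± 61.9 in WT (log2 fold change -1.88, limma adjusted p = 1.01e-05). Txnip, an arrestin that restrains glucose uptake, fell to 134 ± 35.4 in KO, against 986 ± 259 in WT. The members that rose were Cd36, Plin2, Acadl, Scd1, Me1 and Olr1.

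Of 14 measured genes of fatty acid uptake and activation, 4 were higher in KO, 4 lower and 6 not called. That is 57.1% called, against 38.7% of all tested genes, of which nearly equal shares were higher (18.7%) and lower (20.0%). Their median difference was 0.08 log2 units. The scavenger receptor and fatty acid translocase Cd36 rose to 1661 ± 211 in KO, against 734 ± 129 in WT. Acsl3, an acyl-CoA synthetase of lipid droplets, rose to 16.5 ± 2.07 in KO, against 9.48 ± 0.574 in WT, and the acyl-CoA binding protein Acbd6 to 34.8 ± 4.01 in KO, against 23.3 ± 1.26 in WT. Scp2, a sterol carrier with peroxisomal thiolase activity, fell to 256 ± 20.8 in KO, against 399 ± 24.0 in WT. Acsl1, Dbi and Acbd5, which activate or bind fatty acyl chains, were the other genes that fell.

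In lipolysis and lipid release, 3 of 13 measured genes rose, 1 fell and 9 did not pass, the median being 0.09 log2 units. The share called, 30.8%, did not exceed the 38.7% of all tested genes. The lysosomal acid lipase Lipa rose to 1419 ± 91.1 in KO, against 895 ± 102 in WT. The monoacylglycerol lipase Mgll rose to 342 ± 11.5 in KO, against 256 ± 8.51 in WT, and the acid amidase Naaa to 848 ± 41.8 in KO, against 624 ± 24.7 in WT. Pnpla8, a phospholipase, fell to 322 ± 23.2 in KO, against 416 ± 16.7 in WT. Of 11 other intracellular lipid binding proteins in the list, which covers the remaining fatty acid, retinol and retinoic acid carriers, 0 were analysed here.

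**Figure D4:**
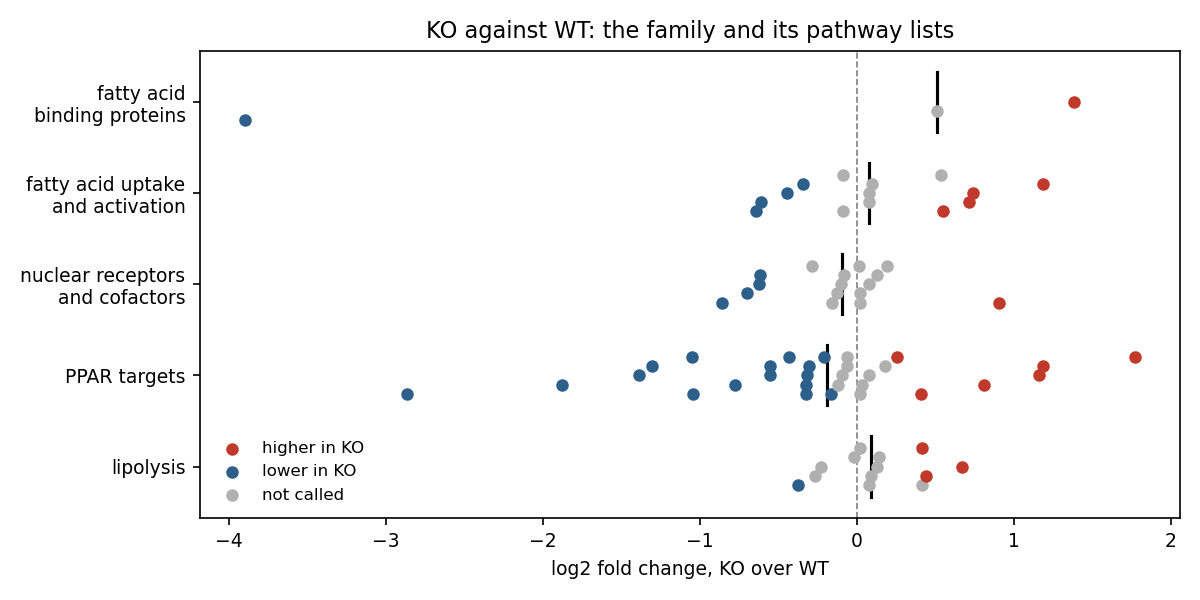
Log2 fold change, KO over WT, of each measured gene (points, coloured by call and spread vertically only for visibility) in the fatty acid binding protein family and the pathway lists, with black lines at the list medians. Fabp1 at -3.90 is the leftmost point of all lists, and list medians lie between -0.19 and 0.09 apart from that of the 3 binding proteins.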

How the data were processed

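RNA-seq was analysed for 8 libraries, 4 KO and 4 WT, grouped by their titles. Per the submitters' processing notes the tools were CASAVA 1.8.2, cutadapt 1.7.1, RSEM 1.3.1 and limma, with build GRCm38. For the aligner, annotation release and strand setting nothing is stated in these sources. In the deposited table each gene has, for each library, a normalised signal value made by the authors. Every value divided by the smallest of its column is an odd whole number (100% within 0.01), which is what whole reads plus 0.5, divided by a library factor, give. Reads were read back from this spacing for depth and for an alternative with voom weights only. The table had 12367 rows, of which 13 have no gene name.

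Log2(value + 1) was fitted with limma 3.58.1 in R 4.3.3 (mean-variance trend, two-sided, Benjamini-Hochberg over 12163 genes, no block), and tested on simulated data. Exact permutation tests used scipy 1.17.1. Lengths come from GENCODE M21 and copies from BLAST 2.17.0. As a check of pairing, KO and WT libraries of the same number had correlated deviations (r across genes 0.363, 0.286, 0.394 and 0.431), against -0.374 to 0.0917 for different numbers. This pairing comes from the data, because no label states what the replicate numbers stand for. Each library is a pool of mice per the labels, so p-values set the difference between genotypes against the spread between these pools. Members and lists were chosen with earlier results of these data known. Named genes were the members, Tfam, PPAR genes, the 4 lowest p of each pathway list and the 3 nearest patterns per member. Ppargc1b, Plin1, Chil3, the neighbours and other genes named without values lie outside this rule, as do the 3 mitochondrial genes set beside Fabp1.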

Additional observations from a re-analysis of the deposited data

Results flagged for a closer look

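Of 78 groups of 4 libraries examined for a library far from the others, 2 were marked, and chance alone marks about 1 group in 20. Pparg was 384 in KO replicate 4, against 251 to 271 in the other KO libraries. The share of Fabp1 in the summed level per kilobase was 49.8% in WT replicate 4, against 41.9% to 42.8% in the other WT libraries. Both libraries carry the number 4, which the second principal component set apart.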

How the results depend on the processing

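Fabp1, Fabp5 and Tfam kept their direction and call under all 21 alternatives, with log2 fold changes of -4.09 to -3.51, 1.26 to 1.48 and -2.81 to -1.91. Fabp4 stayed positive in all 21, between 0.23 and 0.66, and passed with the replicate block (0.51, pairing by number) and without both replicate 4 libraries (0.34). The block changed no other member's call. At a threshold of 0.01 the genes called over the whole table were 1513 higher and 1543 lower, and the lower PPAR targets numbered 10. Among receptors and cofactors 2 genes rose, in place of 1, under quantile normalisation, library quality weights, the replicate block and without both replicate 4 libraries, and 1 to 2 when 1 library was left out. In lipolysis 2 genes fell under the block, and 1 to 2 with 1 library left out. The shift in the Fabp5 to Fabp1 ratio was 4.88 at a pseudocount of 5, which adds more to the low Fabp1 values. Pparg, never called, turned to -0.01 under quantile normalisation (-0.0149) and without both replicate 4 libraries (-0.0119), and ran from -0.119 to 0.126 when 1 library was left out. The fit with no added pseudocount, the one with voom weights, and the family sums without the replicate 4 libraries were chosen after seeing the data. The other changes of call concerned Ppard, Ciapin1 and Hpgds, and their cause was not tested. Read numbers were at least 212 for each member in each library.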
